A study of Mus musculus with 8 samples.

Results

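The 9 genes described here encode the enzymes that build gangliosides, sialic acid-bearing glycolipids of the outer cell membrane, from ceramide to the disialoganglioside GD2 and the more complex products beyond it. They were chosen by name, and each was read from the probe set with the highest mean among those annotated to that symbol alone. All 9 were measured, of 22180 genes in the table. RNA came from 8 primary tumours in mice, 1 array per tumour, all with 1 label and so 1 group (n = 8). The tumours grew under the skin of nude or C57Bl/6 mice from neural crest cells (NCCs) transduced with N-Myc, and about 10000 cells were injected 48 hours after infection and the tumours removed after about 50 days. Every injected population was a mixture of p53+/- and p53-/- cells, and which tumour had which host is not given in the labels. No untransduced cell, normal tissue or other tumour was analysed here, and the labels do not say whether the tumours came from separate cultures, so p-values measure only the spread between these samples, which may be technical.

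Gangliosides are made in the Golgi by enzymes that add 1 sugar at a time. Glucose and then galactose are added to ceramide, a first sialic acid gives GM3, and a second gives GD3. N-acetylgalactosamine is then added to GM3 to give GM2 or to GD3 to give GD2, the antigen that therapeutic antibodies bind on neuroblastoma cells. Further galactose and sialic acid give GM1, GD1a, GD1b, GT1b and the other gangliosides of mature neurons. The arrays measured RNA of whole tumours and not the glycolipids, and fewer cells of a type cannot be told apart from less RNA per cell.

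Levels are log2 values, so a difference of 1 is a doubling, and an array's background was set at the 95th percentile of its 1440 probe sets for chemosensory receptors (olfactory, vomeronasal and bitter taste), between 5.45 and 5.66. Array medians lay between 5.63 and 5.75. The label of neuroblastoma was checked with sympathoadrenal genes, of which 8 of 8 measured were above background, among them Th, Dbh, Hand2 and Isl1. Of all genes, 57.3% were above background. Tumours differed in other markers. The sympathoadrenal list, averaged after each gene was centred on its mean, was lowest in tumour 6 (-1.68, against -0.31 to 0.76 elsewhere). Of crest and glia genes, 5 of 6 measured were above background, and their mean was highest in tumours 4 and 6. It was 2.24 and 1.43 there, against -0.15 or lower. Sox10, Foxd3, Erbb3 and Fabp7 were each highest in these tumours, with the largest SD for Fabp7 (2.20). Ednrb was highest in tumour 4 (8.63), but in tumour 6 it was at 6.77, below its mean of 6.85. Of macrophage markers 8 of 8 were above background, of endothelial markers 5 of 6, and of fibroblast and pericyte markers 7 of 8. For skeletal muscle it was 3 of 5, a share near that of all genes. For T cells it was 0 of 5 and for B cells 0 of 2 measured. Krt14, a keratinocyte gene, reached 9.13 in tumour 5, with 5.29 as the next highest tumour.

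The full route from ceramide to GD2 was present as RNA in every tumour. All 9 genes were above background on all 8 arrays, and limma called 9 of 9 (highest adjusted p = 9.53e-07, for B3galt4), where 57.3% of all genes were called. The median margin of the 9 was 2.96, beside 2.24 over the genes called and 0.68 over all genes, a description only, since levels of different probe sets are not on one scale. B3galt4 and St8sia5 had the smallest margins (0.60 and 0.79). With a stricter background, the 99th percentile of the receptor probe sets, their margins were -0.41 and -0.22 and 7 of 9 members were called, where 41.9% of all genes were. At the 90th percentile all 9 were called, where 68.2% of all genes were.

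**Figure D1:**
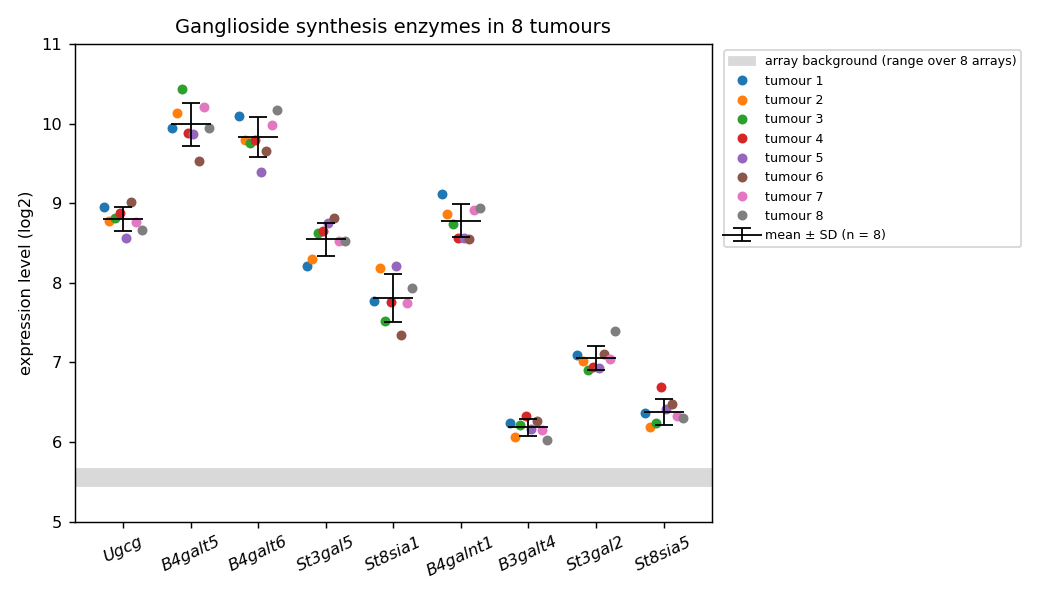
Log2 expression level (y axis) of the 9 enzymes in pathway order (x axis), with 1 point per tumour, black bars for the mean ± SD (n = 8) and a grey band for the range of array background (5.45 to 5.66). All points lie above the band, closest for B3galt4, whose lowest tumour was at 6.03, and St8sia5 (6.18).

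The spread of the genes between tumours was near that of detected genes in general, with a median SD of 0.21, against 0.23 for the 12715 genes above background. The widest spreads belonged to St8sia1 (SD 0.30, larger than in 70.6% of detected genes), B4galt5 (0.27, larger than in 63.2%) and B4galt6 (0.25, larger than in 57.8%), and the narrowest to B3galt4 (0.10, larger than in 4.14%). Between the highest and the lowest tumour, levels differed by 1.24-fold (B3galt4) to 1.88-fold (B4galt5). Each tumour was measured once, so 2 tumours next to each other in such an order cannot be told apart.

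Ugcg encodes glucosylceramide synthase, which commits ceramide to this route. It was at 8.95, 8.77, 8.82, 8.87, 8.56, 9.02, 8.77 and 8.66 in tumours 1 to 8 (8.80 ± 0.15, SD, n = 8), a margin over background of 3.22 (SE 0.07, limma, adjusted p = 3.74e-13). Tumour 6 was highest and tumour 5 lowest, a 1.38-fold difference.

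B4galt5 and B4galt6 encode the galactosyltransferases that make lactosylceramide. B4galt5 was at 9.95, 10.13, 10.44, 9.88, 9.86, 9.53, 10.21 and 9.95 in tumours 1 to 8 (9.99 ± 0.27, SD, n = 8), highest in tumour 3 and lowest in tumour 6. B4galt6 was at 10.10, 9.79, 9.76, 9.80, 9.39, 9.66, 9.99 and 10.17 (9.83 ± 0.25, SD, n = 8), highest in tumour 8 and lowest in tumour 5, 1.72-fold apart. The pair thus had different extreme tumours, and over the 8 tumours their levels had r = 0.24 (rho = 0.36, exact permutation p = 0.582 and 0.389).

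St3gal5 encodes GM3 synthase, the branch point for all the gangliosides that follow. Its levels were 8.20, 8.30, 8.62, 8.65, 8.75, 8.81, 8.52 and 8.53 in tumours 1 to 8 (8.55 ± 0.21, SD, n = 8), 2.96 above background (SE 0.09, limma, adjusted p = 3.92e-12). Tumours 1 and 2 were lowest, and tumour 6 was highest, 1.52-fold above tumour 1.

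St8sia1 encodes GD3 synthase, which adds the second sialic acid and so opens the way to GD2. It stood at 7.77 in tumour 1, 8.19 in tumour 2, 7.52 in tumour 3, 7.75 in tumour 4, 8.21 in tumour 5, 7.34 in tumour 6, 7.74 in tumour 7 and 7.93 in tumour 8 (7.81 ± 0.30, SD, n = 8). Tumours 5 and 2 were high and tumours 6 and 3 low, with 1.82-fold between the extremes. The margin over background was 2.22 (SE 0.09, limma, adjusted p = 1.35e-10).

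B4galnt1 encodes GM2/GD2 synthase, which makes GD2 from GD3. It was at 9.11 in tumour 1, 8.86 in tumour 2, 8.73 in tumour 3, 8.57 in tumour 4, 8.56 in tumour 5, 8.55 in tumour 6, 8.91 in tumour 7 and 8.94 in tumour 8 (8.78 ± 0.21, SD, n = 8). Tumours 4, 5 and 6 formed the low end within 0.02 of each other, and tumour 1 was 1.48-fold above tumour 6. B4galnt1 lay 3.19 above background (SE 0.08, limma, adjusted p = 1.07e-12). In tumour 5, where St8sia1 was highest (0.40 above its mean), B4galnt1 was 0.22 below its own mean, whereas in tumour 6 both were below their means, at -0.46 and -0.23.

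The remaining enzymes, not all of which act only after GD2, had margins over background of 0.60 (B3galt4), 1.47 (St3gal2) and 0.79 (St8sia5). B3galt4, which adds galactose to GM2 and GD2 to give GM1 and GD1b, ran from 6.03 in tumour 8 to 6.33 in tumour 4 (median 6.19). St3gal2, which adds the terminal sialic acid of GD1a and GT1b, was at 7.39 in tumour 8 and at 6.91 to 7.11 in the other tumours (SE of the margin 0.07, limma, adjusted p = 9.44e-10). St8sia5, which adds a further sialic acid to make GT3 and more highly sialylated gangliosides, ran from 6.18 in tumour 2 to 6.70 in tumour 4 (median 6.34). St8sia5 was the only member with more than 1 usable probe set, and its other one ran from 5.90 in tumour 1 to 6.70 in tumour 6, so the probe sets placed a different tumour at the top.

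**Figure D2:**
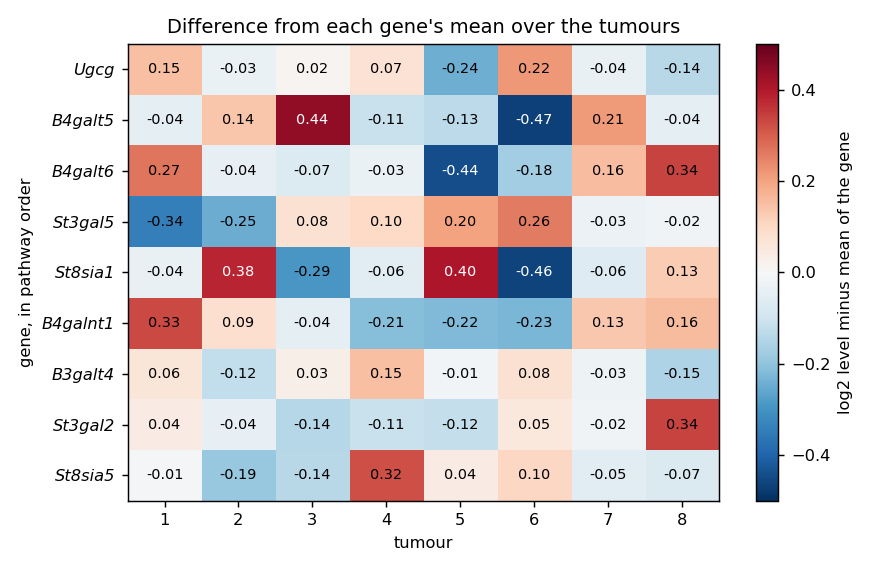
Difference of each gene's log2 level from its own mean over the 8 tumours (colour and printed value), with genes in pathway order as rows and tumours as columns. Tumour 6 held the lowest value of 3 genes (B4galt5, St8sia1 and B4galnt1) and the highest of Ugcg and St3gal5.

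No tumour was high or low along the whole route. The number of members above their own mean was between 3 and 5 of 9 in every tumour. For 10 pairs of enzymes at the same or neighbouring steps, Pearson's r and Spearman's rho were computed over the 8 tumours. None of the 10 passed by r or by rho (exact permutation, two-sided, adjusted p of at least 0.662), and before adjustment 0 were under 0.05 by either measure. The largest r in size was that of B4galt6 and St3gal5 (r = -0.64, exact permutation p = 0.0839, rho = -0.69, p = 0.0694, adjusted p = 0.680 and 0.662), and without tumours 5 and 8, the farthest from the B4galt6 median, it was -0.74. For St8sia1 and B4galnt1, the pair that makes GD2 from GM3, r was 0.17 (exact permutation p = 0.680) and rho 0.24 (p = 0.582). That r was -0.15 without tumour 6 and 0.63 without tumours 2 and 5, so its sign and size changed with the tumours left out.

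By Pearson's r, St8sia1 followed the mean of the sympathoadrenal genes across the tumours, and no other member passed that test. Each member was set against 6 marker lists, 54 relations in all. By r, 1 passed after adjustment and 4 had an unadjusted p under 0.05. By rho, 0 passed and 4 had an unadjusted p under 0.05. St8sia1 and the mean of the 8 sympathoadrenal genes had r = 0.90 (exact permutation, two-sided, p = 0.000298, adjusted p = 0.0161) and rho = 0.88 (p = 0.00724, adjusted p = 0.391). The list mean was 0.76 in tumour 2, 0.66 in tumour 5 and 0.46 in tumour 8, the same tumours that were highest for St8sia1, and lowest in tumours 6 (-1.68) and 3 (-0.31), the lowest for St8sia1. Without tumours 2 and 6, the farthest from the list's median, r was 0.89, and with each tumour left out in turn it ran from 0.88 to 0.92. With 7 tumours the call over the 54 relations was lost without tumour 2 (exact permutation, adjusted p = 0.246), tumour 3 (0.129), tumour 5 (0.225), tumour 6 (0.257) or tumour 8 (0.129).

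All 8 sympathoadrenal genes had a positive r with St8sia1. Those of the catecholamine enzymes Ddc, Th and Dbh were 0.90, 0.88 and 0.80, and those of the transcription factor gene Isl1 and the granin gene Chgb were 0.41 and 0.42. The genes were centred but not scaled, so those with the largest SD, Dbh (1.88), Ddc (1.69) and Chgb (1.37), weighed most in the list mean. With each gene left out of the list in turn, r ran from 0.85 to 0.92. Without tumours 4 and 6, where the crest and glia list mean was high, it was 0.92 (n = 6, exact permutation p = 0.0194). The 5 other lists had a negative r with St8sia1, and none passed. For macrophage genes r was -0.63 (exact permutation p = 0.0916, adjusted p = 0.503) and rho -0.74 (p = 0.0458, adjusted p = 0.518), with list means of 0.70 in tumour 3 and 0.44 in tumour 6. For fibroblast and pericyte genes r was -0.63 (exact permutation p = 0.101, adjusted p = 0.503) and rho -0.57 (p = 0.151, adjusted p = 0.680), with list means of 0.75 and 0.38 in these tumours. For skeletal muscle, crest and glia, and endothelial genes r was -0.49, -0.41 and -0.17 (exact permutation p = 0.223, 0.316 and 0.677). The skeletal muscle list mean was 1.65 in tumour 6, 1.16 in tumour 3 and 1.11 in tumour 8. The part of these cells in the result was not tested.

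**Figure D3:**
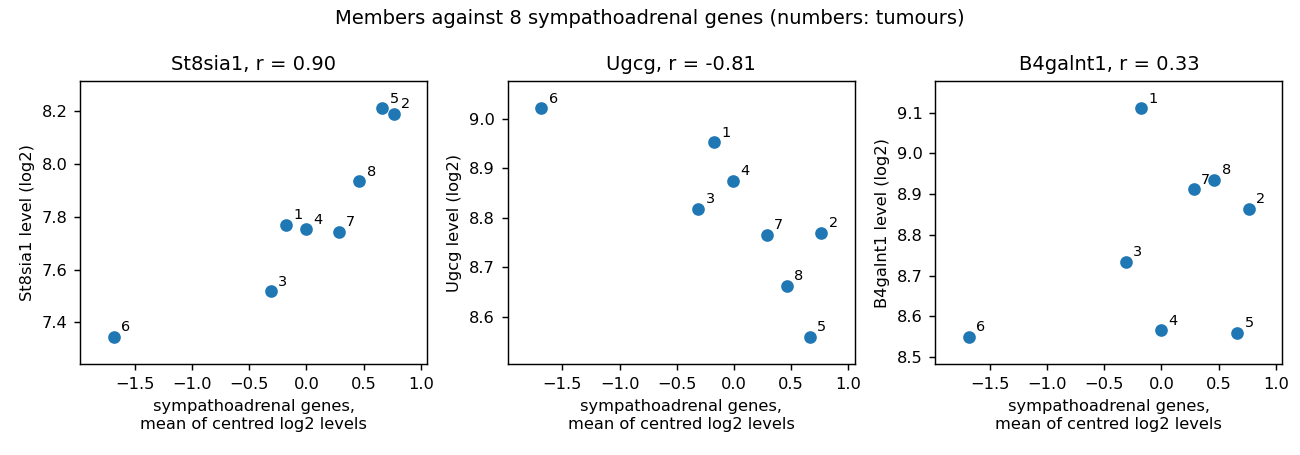
Log2 level (y axes) of St8sia1, Ugcg and B4galnt1 against the mean of the 8 centred sympathoadrenal genes (x axes), with 1 numbered point per tumour. St8sia1 rises with the list from tumour 6 to tumours 2 and 5 (r = 0.90), Ugcg runs the opposite way (r = -0.81, not past the adjusted threshold) and B4galnt1 shows r = 0.33.

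Ugcg, at the entry to the route, had r = -0.81 with the sympathoadrenal list (rho = -0.79, exact permutation p = 0.0116 and 0.0279), but the adjusted p was 0.209 and 0.518. It remained negative without tumours 2 and 6 (r = -0.88). B4galnt1 had r = 0.33 with that list (rho = 0.21, exact permutation p = 0.465 and 0.619) and r = -0.77 with the endothelial list (rho = -0.71, p = 0.0248 and 0.0576, adjusted p = 0.334 and 0.518), whose r was -0.51 without tumours 1 and 4. St8sia5 had r = 0.85 with the crest and glia list (rho = 0.60, exact permutation p = 0.00895 and 0.132, adjusted p = 0.209 and 0.680). Without tumours 4 and 6 that r was 0.04, so the relation rested on those tumours. Read from its other probe set, St8sia5 had r = 0.73 with the crest and glia list over all 8 tumours (exact permutation, adjusted p = 0.436).

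Upstream sequence is shown for St8sia1 and Ugcg, the members with the largest positive and negative r with the sympathoadrenal list. RefSeq promoters of build GRCm38.p6 were at hand for 5 of the 9 genes (Ugcg, B4galt5, St3gal5, St8sia1 and B3galt4). The 250 bases before each gene's start were searched on both strands for CACGTG, the E-box that Myc and Max proteins bind, for the GC box GGGCGG and for TATAAA. Capitals mark every match, here of the GC box or its complement. The St8sia1 sequence lies at chr6:142964453-142964702 on the minus strand and that of Ugcg at chr4:59189300-59189549 on the plus strand, both written in the direction of the gene.
St8sia1: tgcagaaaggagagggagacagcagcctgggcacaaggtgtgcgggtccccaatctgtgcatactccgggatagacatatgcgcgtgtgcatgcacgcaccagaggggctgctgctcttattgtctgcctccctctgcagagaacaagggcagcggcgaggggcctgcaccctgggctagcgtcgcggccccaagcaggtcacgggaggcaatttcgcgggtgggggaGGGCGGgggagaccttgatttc
Ugcg: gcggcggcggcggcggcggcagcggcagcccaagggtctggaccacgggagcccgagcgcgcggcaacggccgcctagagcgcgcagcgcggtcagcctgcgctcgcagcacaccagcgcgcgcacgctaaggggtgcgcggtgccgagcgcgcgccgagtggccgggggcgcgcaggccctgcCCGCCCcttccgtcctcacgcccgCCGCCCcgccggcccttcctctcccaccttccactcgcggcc
The St8sia1 sequence held 1 GC box and 14 CpG dinucleotides at 63.6% G and C, and that of Ugcg 2 GC boxes and 43 CpG at 80.4% G and C. Over all 32851 promoter windows of that length, 32.7% held the GC box, 6.02% CACGTG and 12.4% TATAAA, and the median was 6 CpG. None of the 5 sequences held CACGTG or TATAAA in these 250 bases, and B4galt5 held 7 GC boxes.

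The genes whose pattern over the 8 tumours was most like that of B4galnt1, by Pearson's r among 6358 detected genes with at least the median SD, were Pcdh8, a protocadherin (0.98), Lrp8, a reelin receptor (0.97), Atxn7 (0.97), Slc4a10, a neuronal bicarbonate transporter (0.96), and Gnptab, which tags lysosomal enzymes (0.95). All 5 were highest in tumour 1, as B4galnt1 was. For St8sia1 they were Hddc3 (0.97), Ghrh, growth hormone-releasing hormone (0.93), B3galnt1, the globoside synthase of a competing glycolipid branch (0.92), Gstm7 (0.91) and 4931403G20Rik (0.91). They were picked for their r, which is a description of these tumours.

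Of 57 other genes of ganglioside metabolism, 52 were measured and limma called 44 above background, with a median margin of 2.14, where 57.3% of all genes were called. The counts by list are small and are given as a description. Of ceramide synthesis genes, 8 of 10 were called. Sptlc1, a subunit of the enzyme that starts sphingolipid synthesis, averaged 7.30 ± 0.37 (SD, n = 8) and Cers4, a ceramide synthase, 8.39 ± 0.47. The ceramide synthase Cers3 (5.51 ± 0.20) and the subunit gene Sptlc3 (4.52 ± 0.18) were not called. All 3 genes of glycolipid transfer were called, with Gltp at 8.91 ± 0.29 and Plekha8, which carries glucosylceramide, at 6.45 ± 0.20. Plekha8 lay below background when its probe sets were averaged (margin -0.24).

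On the routes that draw ceramide or lactosylceramide into other lipids, 5 of 8 enzymes were called, a share near that of all genes. Ugt8a, which makes galactosylceramide, was at 7.74 ± 0.46 (SD, n = 8), lowest in tumour 7, and B3gnt5, which starts the lacto series, at 7.64 ± 0.39, lowest in tumour 6. Those not called were A4galt (5.20 ± 0.20), the Gb3 synthase of the globo series, Sgms2 (5.48 ± 0.21), a sphingomyelin synthase, and Gal3st1 (5.71 ± 0.24), the sulfatide sulfotransferase. Gal3st1 was called without tumour 2 (margin 0.16, limma, adjusted p = 0.0479).

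Other sialyltransferases and the genes for acetylation of sialic acid were all called, 9 of 9. St6galnac5, which makes alpha-series gangliosides, had the largest SD of these (6.83 ± 0.81, n = 8), at 8.55 in tumour 8, 7.46 in tumour 4 and 6.05 to 6.66 elsewhere. Its call was lost with the 99th percentile as background (margin 0.24, limma, adjusted p = 0.395). St6galnac4 (7.43 ± 0.58) was highest in tumour 6 (8.66) and at 6.91 to 7.79 in the others. The 3 genes of polysialic acid on NCAM were called. Both polysialyltransferase genes, St8sia2 (8.89 ± 0.52) and St8sia4 (7.69 ± 0.80), were lowest in tumour 6 (7.86 and 6.07), as was Ncam1 (10.63), in the same tumour as the lowest level of St8sia1.

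Of the genes that make and carry CMP-sialic acid, 5 of 6 were called. Nans and Nanp, consecutive enzymes of sialic acid synthesis, were at 7.43 ± 0.31 and 7.21 ± 0.35 (SD, n = 8), with Nans highest and Nanp lowest in tumour 6 (8.02 and 6.75). Cmah, which makes the N-glycolyl form of sialic acid, was at 5.71 ± 0.12 and not called, though it was called without tumour 4 (margin 0.16, limma, adjusted p = 0.0292). Of the genes that make or carry UDP-sugars, 2 of 2 measured were called, Ugp2 (8.05 ± 0.20) and the UDP-galactose transporter gene Slc35a2 (6.76 ± 0.12), whose call was lost with the 99th percentile as background (margin 0.17, limma, adjusted p = 0.0547).

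Of genes listed under lysosomal breakdown, not all of which act in the lysosome, 9 of 11 were called. Hexa, a subunit of the hexosaminidase that degrades GM2, was at 8.95 ± 0.39 (SD, n = 8), with its high values in tumours 4 and 6 (9.51 and 9.47) and its low value in tumour 5 (8.38). Galc, which cleaves galactosylceramide, was at 7.40 ± 0.37 and highest in tumour 3 (8.09). The sialidase genes Neu2 (3.89 ± 0.18) and Neu4 (5.49 ± 0.09) were not called.

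**Figure D4:**
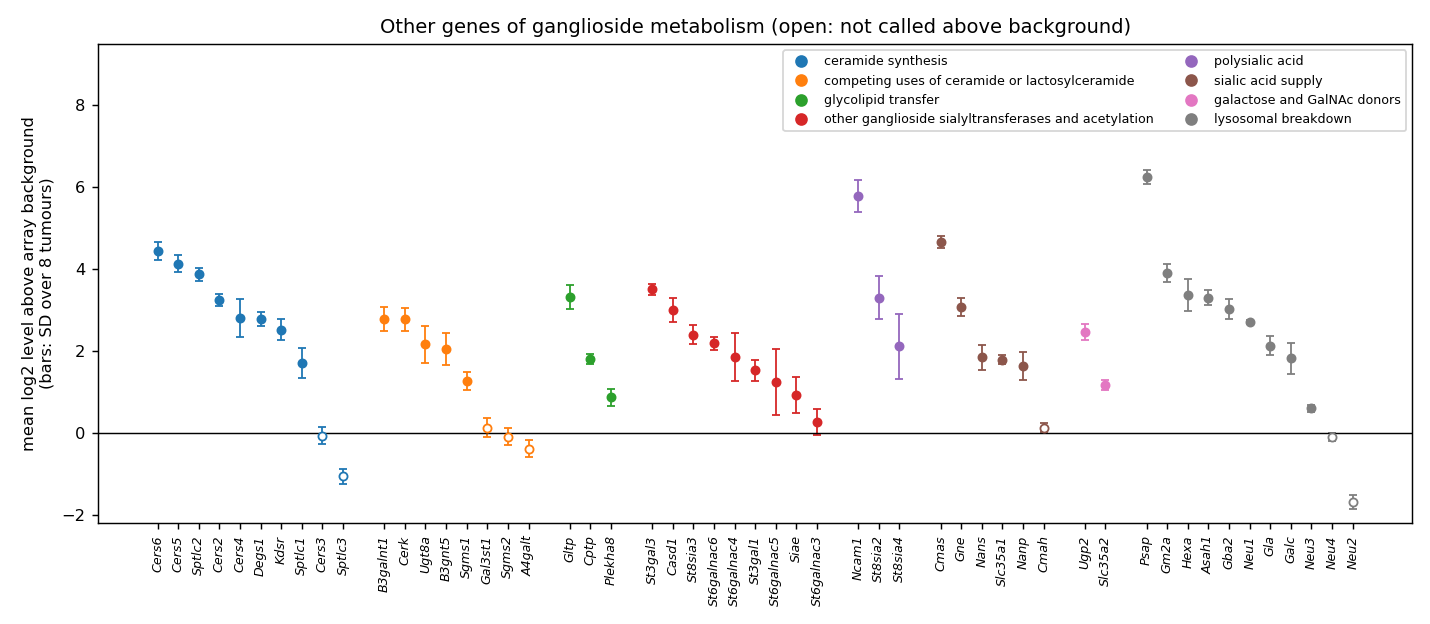
Mean log2 level above array background (y axis, bars for the SD over 8 tumours) of the 52 other measured genes of ganglioside metabolism, grouped by list (colour). Filled points are the 44 genes called above background and open points the 8 that were not, from Neu2 at -1.69 to Gal3st1 and Cmah at 0.12.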

How the data were processed

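The deposited table gives log2 expression per probe set. RMA and Partek 6.5 are the tools the authors used to make it, per the submitters' processing notes, and the role of each is not stated there. That the scale is log2 follows from the range of values (2.07 to 13.61). The sources used here do not give the genome build, annotation or options. Of 41345 probe sets, 23521 carried 1 gene symbol in the platform annotation, 1814 several and 16010 were unnamed here. No gene was read from a probe set with several symbols, and genes without a probe set of their own are not analysed here. Depth has no meaning for arrays, and their number limits the precision.

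Each gene's level minus the background of its array was tested against 0 with limma 3.58.1 in R 4.3.3 (trend and robust prior). Genes above 0 were called at an adjusted p under 0.05 (Benjamini-Hochberg over all 22180 genes). The fit was tested on simulated data. Relations over tumours used all 40320 pairings in a two-sided exact permutation test, and p-values were adjusted over the 10 or the 54 relations by Benjamini-Hochberg. Work outside limma used Python 3.11.15, numpy 2.4.6, pandas 2.3.3, scipy 1.17.1 and matplotlib 3.10.9.

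The members and lists were chosen with earlier results of these data known. Named were the 9 members, in each pathway list the 2 called genes with the largest SD and those not called, and the 5 genes most alike to B4galnt1 and to St8sia1. Other genes in the text were picked with their values in view. Alternatives were the mean of a gene's probe sets, arrays centred or quantile normalized again, the 90th and 99th percentile as background, limma without trend and robust prior, and leaving out each tumour. Reading St8sia5 from its other probe set, leaving single genes out of the sympathoadrenal list and leaving out tumours 4 and 6 were added after seeing the data.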

Additional observations from a re-analysis of the deposited data

Results flagged for a closer look

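St3gal2 was at 7.39 in tumour 8, and the gap to the next tumour was 0.595 of the range over all 8. Sptlc1, which was named for its spread, was at 8.09 in tumour 3, with a gap of 0.571 of the range. Both gaps went past Dixon's 95% limit, which marks a sample far from the others. Of 43 named genes examined, 2 did so, and chance alone marks about 5% of genes.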

How the results depend on the processing

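The 9 members were called above background under every alternative except the 99th percentile as background (7 called, without B3galt4 at -0.41 and St8sia5 at -0.22). That background also turned the margins of Gal3st1 (-0.88), Cmah (-0.88) and Plekha8 (-0.14), and averaging probe sets turned that of Plekha8 (-0.24). The 90th percentile turned those of Cers3 (0.54), Sgms2 (0.51), A4galt (0.22) and Neu4 (0.52). Gal3st1 and Cmah were called at the 90th percentile (0.74 and 0.74), and St6galnac5 (0.24) and Slc35a2 (0.17) lost their calls at the 99th. Of the other pathway genes, 50 were called at the 90th percentile, 38 at the 99th and 43 to 45 without each tumour in turn, where 68.2% of all genes were called at the 90th and 41.9% at the 99th. None of the 10 pathway step relations passed by r under any alternative run. Without each tumour in turn, 0 to 1 of the 54 marker list relations passed by r. In these runs r ran from -0.57 to 0.20 for Ugcg and B4galt5 and from -0.49 to 0.53 for Ugcg and B4galt6. It ran from -0.15 to 0.52 for St8sia1 and B4galnt1. It ran from -0.68 to 0.00093 for B3galt4 and St3gal2, and from -0.36 to 0.098 for St3gal2 and St8sia5. The last was 0.043 with arrays centred and 0.17 with arrays quantile normalized again. The causes were not tested. No paired analysis was possible because the labels give 1 group.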

Other observations

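Another probe set is annotated to St8sia1 together with Gm7457 and was not used. It ran from 4.90 in tumour 6 to 5.34 in tumour 2, below the background of 5.45 to 5.66, while the probe set of St8sia1 alone ran from 7.34 to 8.21.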
